A study of Canis lupus familiaris with 4 samples.

Results

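Of the 4 arrays in this series, 2 are compared here: the array labelled KD hypoxia against the array labelled WT hypoxia. Both carry RNA from MDCKII cells, an established epithelial line from dog kidney that grows as a polarised sheet. Both had 24 h in normoxia followed by 24 h in hypoxia, and they differ in the labelled state of HIF1A, normal (WT) or knocked down (KD). They are called the KD and WT hypoxia arrays in what follows, with names taken from the labels. The other pair of arrays, labelled KD normoxia and WT normoxia, had 24 h more of normoxia in place of hypoxia and is used only for comparison. The labels name neither the knockdown method nor the oxygen level, and do not say whether the knockdown cells were a clone or a pool. The comparison describes how gene expression differs between the KD and WT labels in cells kept in hypoxia.

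HIF1A is the subunit of the transcription factor HIF-1 that responds to oxygen. With oxygen, prolyl hydroxylases mark the HIF1A protein for destruction through VHL. Without oxygen the protein lasts, pairs with ARNT and turns on genes of glucose use, acid handling, mitochondrial clearance and vessel growth. Its activity is set mainly at the protein level, which an array does not measure.

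Each side of the comparison is 1 array, so no difference has a replicate check, no error can be given and no test was made. All differences are log2(intensity + 16) in the array labelled KD minus that in the array labelled WT, and a difference of 1 is called 2-fold. The addition of 16 makes the differences of dim genes smaller than their true fold. A gene is represented by its brightest probe set and was kept when at least 1 of the 4 arrays reached the floor, an intensity of 46.3, which left 9834 of 15115 genes. The 2 hypoxia arrays had median intensities of 47.0 (WT) and 45.6 (KD) and correlated across probe sets with r = 0.987. The median difference over all genes kept was -0.01.

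The epithelial identity of the cells was visible in both hypoxia arrays. EPCAM, an epithelial surface protein, read 11210 in the WT and 11319 in the KD array, and the keratin KRT18 read 14355 and 14418. Of 10 epithelial and kidney markers, 4 were below the floor in every array: CDH1, CLDN2, PAX2 and PAX8. The summed intensity of the 10 markers was 37089 in the WT and 37175 in the KD array. Of 8 fibroblast markers, 7 were below the floor in every array, with sums of 169 and 143. The endothelial sums were 354 and 266 and the leukocyte sums 304 and 380, with 3 of 6 and 2 of 5 markers below the floor everywhere. Any part of these small sums in the differences below was not tested, and in RNA from whole cultures fewer cells of a kind and less RNA per cell cannot be told apart.

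HIF1A itself was nearly equal in the pair. Its intensity was 675 in the WT hypoxia array and 625 in the KD hypoxia array, a difference of -0.11. In the normoxia pair it read 3651 (WT) and 3435 (KD), a difference of -0.09. The message by this probe set does not follow the knockdown label in either pair, and every direction given here is that of the labels. Another HIF1A probe set read 27.6 and 21.6 in the hypoxia pair, both below the floor.

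Against the WT hypoxia array, 51 genes (0.519% of those kept) were higher by 2-fold or more in the KD hypoxia array, and 35 genes (0.356%) were lower by as much. Examples from the bright genes among them follow. Higher were growth factor modulators (TMEFF2, FGFBP1), genes known as HIF targets (ANKRD37, ADM, BNIP3L, PDK1), the calcium-binding S100A2, the chemokine CCL17 and the transcription factor SNAI2. Lower were the metallothionein MT1E, the glutathione enzyme GCLC, the glucuronosyltransferase UGT1A6 and the Wnt receptor ligase ZNRF3. At 3-fold, 3 genes remained higher (TMEFF2, ANKRD37 and FGFBP1) and 4 lower (SOCS1, POLR3G, CDC42SE1 and MT1E).

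The higher and lower genes were not measured equally well. Of the 51 higher genes, 30 reached the floor in both hypoxia arrays, and of the 35 lower genes 9 did. For the others 1 or both arrays were below the floor, so the size of the difference is not measured. The 9 were MT1E, GCLC, POLR3G, ALKBH1, ATG4B, UGT1A6, AMOTL2, ZNRF3 and PGGT1B, the last named after its values were seen. The brighter array of the pair reached 200 for 22 of the 51 higher genes and for 8 of the 35 lower ones. Among genes whose brighter hypoxia array lay under 100, 1.46% were 2-fold apart, against 0.833% from 100 to 500 and 0.486% above 500.

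**Figure D1:**
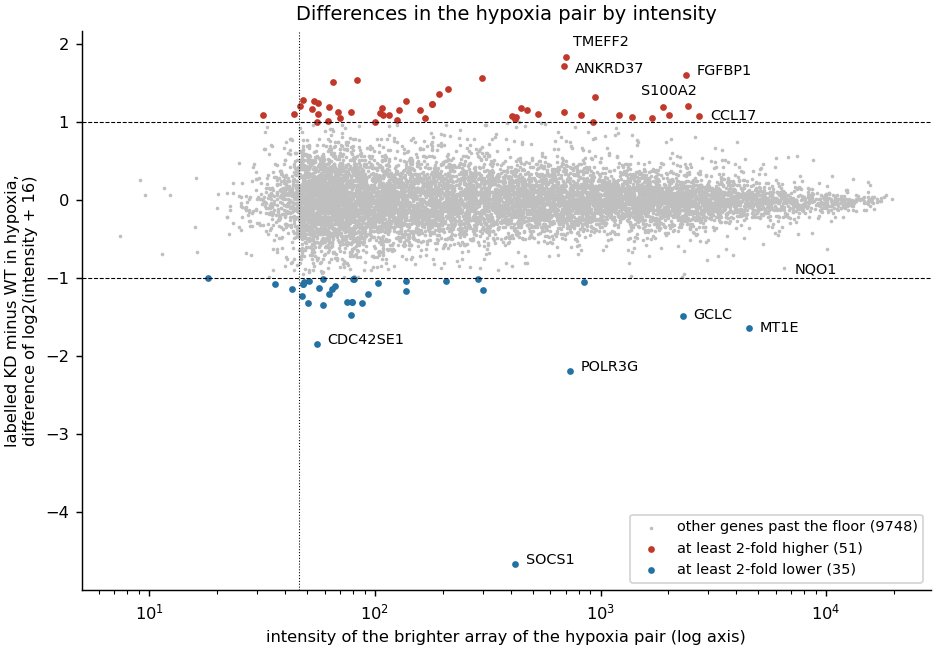
Difference labelled KD minus WT in hypoxia (log2 of intensity + 16, vertical axis) for the 9834 genes kept, against the intensity of the brighter array of the pair (log axis). Dashed lines mark 2-fold and the dotted line the floor at 46.3, and the spread of the grey points narrows from an SD of 0.36 among genes under an intensity of 100 to 0.23 above 500.

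The genes just inside the 2-fold line were PDK1, KIF3B and IZUMO4 on the higher side, and ZNF275, ARHGEF38 and PLSCR5 on the lower side. Just outside it on the higher side were TGFBI, a matrix protein (210 in WT and 435 in KD), the transmembrane protein TMTC3 (185 and 385) and the scaffold protein IQGAP1 (267 and 546). Just outside on the lower side were C1QTNF2 (73.3 and 28.9), ST3GAL3 (33.9 and 9.14) and SLC13A2 (84.6 and 35.0), each below the floor in at least the KD array.

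The normoxia pair has the same labelled contrast and shares no array with the hypoxia pair. In it, 0.854% of genes were higher and 0.325% lower by 2-fold or more. At least 2-fold higher in both pairs were 14 genes (0.142% of those kept), and at least 2-fold lower in both were 7 genes (0.0712%). Across the 9834 genes the differences of both pairs had a Pearson's r of 0.43, given as a description, since genes are not independent replicates.

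**Figure D2:**
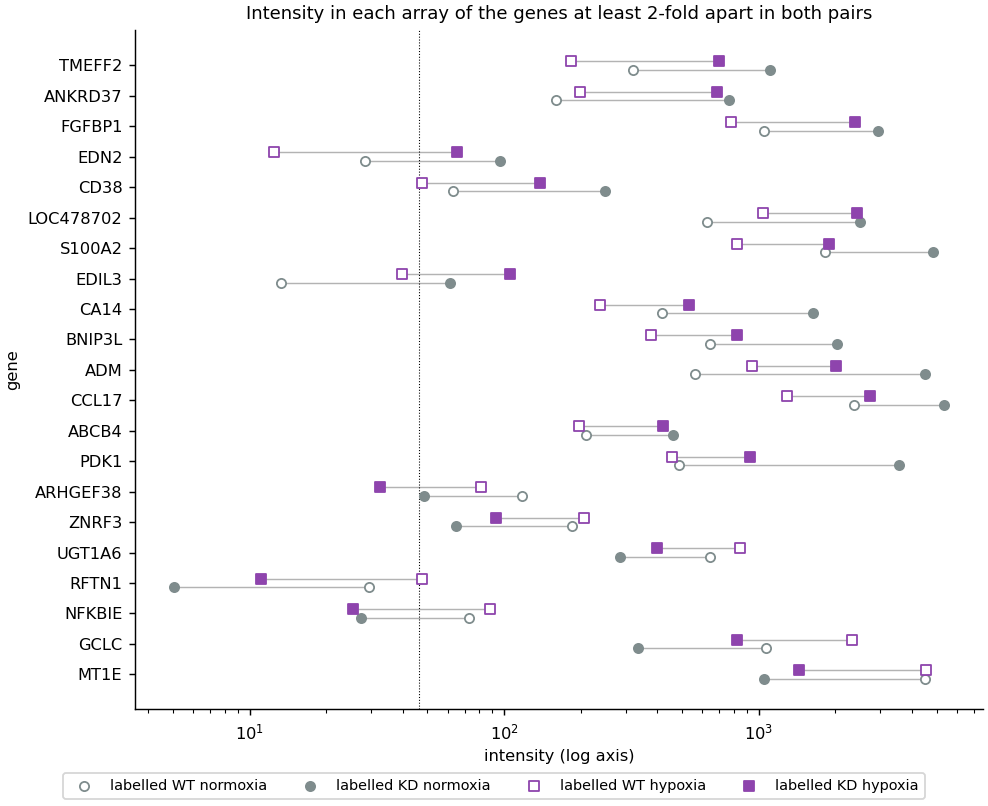
Intensity (log axis) in each of the 4 arrays for the 21 genes that were at least 2-fold apart in the same direction in both pairs. Open symbols are the arrays labelled WT and filled symbols those labelled KD, circles are normoxia and squares hypoxia, and the dotted line is the floor at 46.3; filled symbols lie to the right for the upper 14 genes and to the left for the lower 7.

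TMEFF2, a membrane protein with follistatin-like and EGF-like domains, had the largest difference on the higher side. It read 183 in the WT hypoxia array and 700 in the KD hypoxia array, and 322 and 1107 in the normoxia pair. The differences were 1.84 and 1.73, so the KD array was the higher one in both pairs by a like amount. A second TMEFF2 probe set differed by 1.77 in hypoxia, while the remaining one differed by 0.32. FGFBP1, a secreted carrier that frees fibroblast growth factors from the matrix, read 779 (WT) and 2391 (KD) in hypoxia and 1045 and 2953 in normoxia. Its differences were 1.60 and 1.48. Both genes had lower values in the hypoxia arrays than in the normoxia arrays of the same genotype label.

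ANKRD37, a small ankyrin repeat protein whose gene is a known HIF target, read 198 (WT) and 688 (KD) in hypoxia, a difference of 1.72. In normoxia it read 160 and 766, a difference of 2.15. A second probe set differed by 1.30 in hypoxia and 1.88 in normoxia, with a WT hypoxia value (37.1) below the floor. ADM, a vasodilator peptide, read 941 and 2017 in hypoxia (1.09) against 563 and 4486 in normoxia (2.96). BNIP3L, a mitophagy receptor, read 378 and 823 in hypoxia (1.09) against 641 and 2029 in normoxia (1.64). PDK1, the kinase that closes pyruvate dehydrogenase, read 455 and 927 in hypoxia (1.00) against 488 and 3568 in normoxia (2.83). Its median over 2 probe sets was 0.73 in hypoxia, under 2-fold. CA14, a membrane carbonic anhydrase, read 237 and 531 in hypoxia (1.11) against 418 and 1633 in normoxia (1.93). In each of these 5 genes the KD array was the higher one in both pairs and the gap was smaller in hypoxia. The KD normoxia array had the highest of the 4 values in all 5. The smaller gap was not particular to them, as 11 of the 14 genes at least 2-fold higher in both pairs had it.

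S100A2, a calcium-binding protein of basal epithelia, read 818 (WT) and 1886 (KD) in hypoxia, a difference of 1.19, and its second probe set differed by 1.17. In normoxia the difference was 1.41. CCL17, a chemokine that attracts T cells, read 1293 and 2743 in hypoxia (1.08) and 2370 and 5345 in normoxia (1.17). CD38, an enzyme that consumes NAD, read 47.7 and 138 in hypoxia (1.27), and its second probe set differed by 0.99, with a WT value (19.2) below the floor. ABCB4, which moves phosphatidylcholine across the membrane, read 196 and 419 in hypoxia (1.04) and 209 and 460 in normoxia (1.08). LOC478702, a gene with no assigned name, read 1039 and 2430 in hypoxia (1.21). EDN2, the vasoconstrictor endothelin-2 (12.5 and 65.2), and EDIL3, an integrin ligand of the matrix (39.7 and 105), lay under the floor in the WT hypoxia array, which leaves their differences without a measured size.

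MT1E, a metallothionein that binds zinc and copper, had the largest difference on the lower side among genes above the floor in all 4 arrays and lower in both pairs. It read 4530 in the WT hypoxia array and 1444 in the KD hypoxia array, and 4515 and 1051 in normoxia. The differences were -1.64 and -2.09, and the oxygen label moved the WT value little. Metallothionein genes are close copies of each other, so a probe set can read more than 1 of them. GCLC, the catalytic subunit of the enzyme that starts glutathione synthesis, read 2316 (WT) and 821 (KD) in hypoxia and 1068 and 336 in normoxia. Its differences were -1.48 and -1.62, and a second probe set gave -1.43 and -1.70.

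UGT1A6, which couples glucuronic acid to phenolic compounds, read 844 (WT) and 398 (KD) in hypoxia and 644 and 286 in normoxia, differences of -1.05 and -1.13. Its other probe sets differed by -0.12 and -0.68 in hypoxia, and genes of the UGT1A locus share exons. ZNRF3, a ubiquitin ligase that removes Wnt receptors from the cell surface, read 206 and 92.5 in hypoxia (-1.03) and 184 and 64.9 in normoxia (-1.31). NFKBIE, an inhibitor of NF-kappaB (88.1 and 25.6), RFTN1, a lipid raft protein (47.7 and 11.1), and ARHGEF38 (81.2 and 32.4), were below the floor in the KD hypoxia array.

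**Figure D3:**
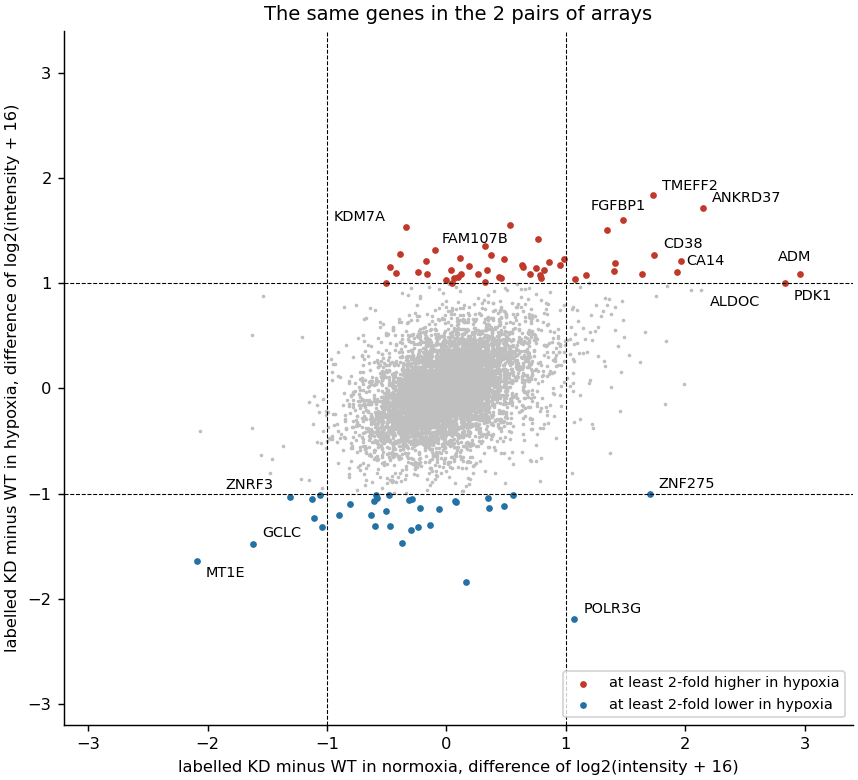
Labelled KD minus WT in hypoxia (vertical axis) against the same difference in normoxia (horizontal axis) for the genes kept, as differences of log2(intensity + 16), with dashed lines at 2-fold; SOCS1 lies outside the axes at 0.00 and -4.67. ADM and PDK1 sit at 2.96 and 2.83 in normoxia but near 1 in hypoxia, MT1E and GCLC are low on both axes, and POLR3G and ZNF275 lie in opposite directions.

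The 2-fold genes of the hypoxia pair were set against the normoxia pair, in which 0.854% of all genes were higher and 0.325% lower by 2-fold or more. Of the 51 higher genes, 42 were also higher in the normoxia pair, 25 by at least 1.5-fold (3.76% of all genes kept) and 14 by at least 2-fold. Their median was 1.13 in hypoxia and 0.53 in normoxia. Of the 35 lower genes, 25 were also lower in the normoxia pair, 13 by at least 1.5-fold (2.82% of all) and 7 by at least 2-fold, with medians of -1.14 and -0.37. Of all 9834 genes kept, 6546 had the same sign in both pairs, a share near that of the 25 among the lower genes. A shift towards 0 in the pair that did not choose the genes follows in part from the choice itself. The WT hypoxia array had the lowest of the 4 values for 42 of the 51 higher genes, against 2336 of all 9834 genes kept. For the 35 lower genes it had the highest value in 24 and the KD hypoxia array the lowest in 25, against 2793 and 2296 of all. Choosing genes by their KD minus WT value favours these positions.

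The normoxia differences of the other large genes on the higher side ranged from below 0 to almost the size in hypoxia. Below 0 were KDM7A (-0.34), FAM107B (-0.10) and, with both normoxia values under the floor, ATP1A4 (-0.39) and IL21R (-0.17). The contrast between pairs could not be tested. FAM107B read 368 in the WT hypoxia array and 944 in the KD hypoxia array (1.32), against 979 and 912 in normoxia (-0.10). The single low value was that of the WT hypoxia array. MTFR1, a mitochondrial fission regulator, read 90.0 and 297 in hypoxia (1.56) and 158 and 235 in normoxia (0.53). KIDINS220, a membrane scaffold of neurotrophin signalling, read 68.7 and 210 (1.42) in hypoxia and 121 and 218 (0.77) in normoxia, but another probe set, below the floor in both hypoxia arrays, was lower in KD (40.9 and 27.2). RAB11FIP1, an adaptor of recycling endosomes, read 64.7 and 192 (1.36), with other probe sets at 0.39 and -0.22, and differed by 0.32 in normoxia. KDM7A, a histone demethylase that needs oxygen, read 18.4 and 83.7 in hypoxia, the first below the floor, against 92.6 and 69.8 in normoxia. The DNA repair nuclease MRE11 read 67.0 and 179 in hypoxia (1.23) and 80.3 and 118 in normoxia (0.48). The linker histone H1-5 read 67.3 and 180 in hypoxia (1.23) and 81.1 and 176 in normoxia (0.98), so its difference was of like size in both pairs. HCFC1R1 read 186 and 444 in hypoxia (1.18) and 179 and 361 in normoxia (0.95), but another probe set was at -0.04 in hypoxia. GLYR1 read 38.5 and 108 in hypoxia, the first below the floor, and 51.2 and 88.0 in normoxia (0.63). Its median over 3 probe sets was 0.37 in hypoxia. ATP1A4, ZSWIM3, PRSS53, IL21R and ADAMTS16, also among the 20 largest, read between 10.4 and 18.2 in the WT hypoxia array, below the floor, and in normoxia both of their values were below it.

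On the lower side 2 large differences rested on a single array or probe set. SOCS1, a feedback inhibitor of cytokine signalling, read 417 in the WT hypoxia array and is listed at 1 in the other 3, which allows no fold. POLR3G, a subunit of RNA polymerase III, read 733 (WT) and 148 (KD) in hypoxia, a difference of -2.19, while its other probe set read 121 and 251, a difference of 0.97. Both POLR3G probe sets were higher in the KD array in normoxia, by 1.07 and 1.08. The value of 733 in the WT hypoxia array is thus seen in 1 of its 2 probe sets. CDC42SE1 (55.3 and 3.99) was below the floor in 3 arrays.

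Further lower genes were mostly dim. ATG4B, a protease of the autophagy pathway, read 302 (WT) and 127 (KD) in hypoxia (-1.15) against 123 and 117 in normoxia (-0.06). By this probe set the WT hypoxia array held the single high value. The median over the 2 ATG4B probe sets was -0.5 in hypoxia. AMOTL2, an angiomotin that holds YAP at junctions, read 137 and 58.7 in hypoxia (-1.04) and 93.7 and 57.1 in normoxia (-0.58). ALKBH1, a demethylase of nucleic acids, read 137 and 51.6 (-1.17), while its other probe set above the floor differed by 0.23. SCAI, a suppressor of invasion, read 92.8 and 31.5, and the ubiquitin ligase NEDD4 read 79.0 and 22.4, each below the floor in the KD array. AP3B2, SLC7A9, DES, DMD, OR52W1, TACR1, TBX4, CACNA1S and NEB, the rest of the 20 largest on this side, read between 10.6 and 22.2 in the KD hypoxia array, all below the floor.

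Where a gene had several probe sets, they could be set against each other. They share the RNA and the array, so they check the measurement and not the condition. For the 51 higher genes, 19 genes had 24 other probe sets past the floor, of which 18 were also higher, 9 by at least 1.5-fold and 4 by at least 2-fold. For the 35 lower genes, 5 genes had 6 others, of which 3 were also lower, 2 by at least 1.5-fold and 1 by at least 2-fold. TMPO, a nuclear envelope protein, was chosen after its values were seen as an example of disagreement: its probe sets past the floor differed by 1.06, 0.96, -0.28 and -1.29. Of the higher genes 25, and of the lower genes 17, had 1 probe set only.

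Beyond single genes, fixed lists of genes are described by counts and medians over the members past the floor. Over all 9834 genes 47.9% were higher and 52.1% lower in the KD hypoxia array. At least 1.5-fold higher were 2.74% and at least 1.5-fold lower 2.59%. In the normoxia pair 48.4% were higher and 51.6% lower, 3.76% and 2.82% by at least 1.5-fold.

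**Figure D4:**
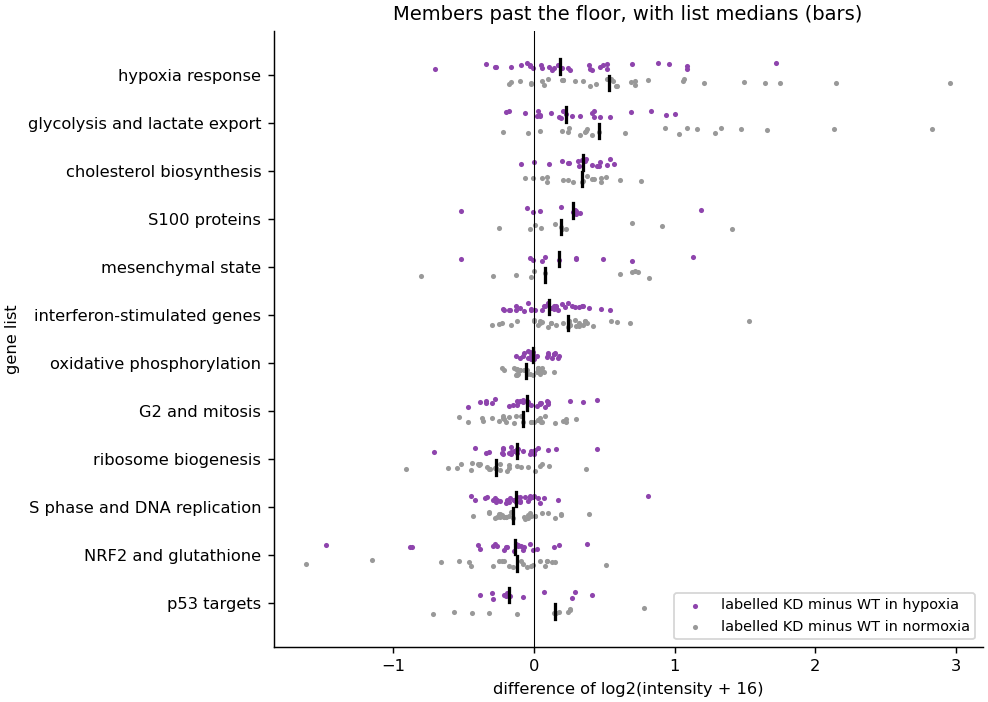
Each point is a list member past the floor, placed at its labelled KD minus WT difference of log2(intensity + 16) in hypoxia (purple) or normoxia (grey), and black bars are list medians; SOCS1, at -4.67 in the interferon list in hypoxia, is left out of the points. The hypoxia response and glycolysis lists have medians of 0.19 and 0.23 in hypoxia against 0.54 and 0.46 in normoxia, and the median of the NRF2 list lies below 0 in both pairs.

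The oxygen-sensing machinery itself was close to level in the hypoxia pair. Of 10 genes for HIF subunits and oxygen sensors, 4 were higher and 6 lower, with a median of -0.03 and none 1.5-fold apart. EGLN1, the main prolyl hydroxylase, read 343 (WT) and 369 (KD) in hypoxia (0.10) but 333 and 686 in normoxia (1.01). EGLN3, an inducible prolyl hydroxylase, read 25.6 and 16.1 in hypoxia, both below the floor, and 33.8 and 101 in normoxia. ARNT, the partner of HIF1A, read 86.5 and 82.8, VHL read 57.9 and 51.5, and HIF1AN, which hydroxylates the activation domain, read 92.8 and 81.7. EPAS1, the HIF2 alpha subunit, read 39.2 and 62.6, the first below the floor.

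Known hypoxia response genes were higher more often than not. Of 32 members past the floor 22 were higher and 10 lower, 6 of them higher and 1 lower by 1.5-fold or more, with a median of 0.19. Besides ANKRD37, ADM and BNIP3L, the higher members were the stress protein NDRG1 (56.7 in WT and 125 in KD, 0.96), the collagen prolyl hydroxylase P4HA1 (347 and 649, 0.88) and the lipase inhibitor ANGPTL4 (99.4 and 171, 0.70). The lower member was the circadian repressor BHLHE41 (3873 and 2376, -0.70), while its relative BHLHE40 was at 0.52. Other known targets were nearly equal by their brightest probe set. VEGFA, the vascular growth factor, read 2281 and 2380, while its dimmer probe set read 25.4 and 60.4 (0.89), the first below the floor. The carbonic anhydrase CA9 read 108 and 105, and DDIT4, which restrains mTOR, 171 and 164. In 26 of the 32 the hypoxia difference was below the normoxia difference, against 4815 of all 9834 genes.

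Glycolysis and lactate export genes showed the same arrangement. Of 23 past the floor, 20 were higher and 3 lower, with a median of 0.23. At least 1.5-fold higher were 4, namely PDK1, the aldolase ALDOC (394 in WT and 773 in KD, 0.94), the phosphofructokinase subunit PFKL (647 and 1161, 0.83) and the enolase ENO3 (116 and 196, 0.69). The single member past 2-fold here, by its brightest probe set, was PDK1, against 9 members in normoxia. GPI, the isomerase that makes fructose phosphate, read 1932 and 2810 in hypoxia (0.54) and 1885 and 6003 in normoxia (1.66). PGK1, an enzyme of lower glycolysis that makes ATP, read 4381 and 5912 in hypoxia (0.43) and 4642 and 9891 in normoxia (1.09). PFKFB3, which sets the pace of phosphofructokinase, read 1944 and 2243 in hypoxia (0.21) and 2148 and 5420 in normoxia (1.33), while its dimmer probe sets past the floor were at -0.13 and -0.66 in hypoxia. The glucose transporter SLC2A1 read 7659 and 7353 (-0.06). For GPI, PGK1 and PFKFB3 the KD normoxia array was the highest of the 4. In 19 of the 23 the hypoxia difference was below the normoxia difference.

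NRF2 is a transcription factor that answers oxidants by raising glutathione and thioredoxin enzymes, and its genes were mostly lower in the KD hypoxia array. Of 24 members past the floor 20 were lower and 4 higher, with a median of -0.13, and 3 were at least 1.5-fold lower with none 1.5-fold higher. Those 3 were GCLC, the quinone reductase NQO1 (6496 in WT and 3541 in KD, -0.87) and OSGIN1 (77.7 and 34.9, the second below the floor). A second NQO1 probe set was also at -0.87 and the remaining one at -0.47. TXNRD1, the thioredoxin reductase, read 6181 and 4675 (-0.40), and its other probe sets past the floor ranged from -0.27 to -0.59. GSR, which recycles glutathione, read 303 and 228 (-0.38) and the glutathione peroxidase GPX2 226 and 181 (-0.29). Close to level were GCLM, the partner of GCLC (3056 and 2920, -0.07), NFE2L2, which encodes NRF2 (3535 and 3462, -0.03), and the peroxiredoxin PRDX1 (11993 and 11320, -0.08). GSS, the second enzyme of glutathione synthesis, read 104 and 140 (0.38) by one probe set and 78.6 and 56.9 (-0.38) by the other, so its direction is not settled. In normoxia 17 of the 24 were lower and 7 higher, with a median of -0.12.

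Other genes of zinc handling than MT1E were nearer to level. Of 10 members of the metallothionein and zinc list past the floor 3 were higher and 7 lower, with a median of -0.07, and MT1E was the single one 1.5-fold apart. MT2A, another metallothionein, read 14771 (WT) and 13505 (KD) in hypoxia (-0.13), near the top of the intensity range. MTF1, the zinc-sensing factor that turns on metallothioneins, read 241 and 231 (-0.05). The zinc exporter SLC30A5 read 524 and 424 (-0.29), and the importer SLC39A10 1252 and 1481 (0.24).

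Cholesterol synthesis genes differed by a small amount in the same direction. Of 18 past the floor 16 were higher and 2 lower, with a median of 0.35 in both pairs, and none was 1.5-fold apart. HMGCS1, which commits acetyl-CoA to the pathway, read 6042 (WT) and 8700 (KD) in hypoxia (0.52). EBP, a sterol isomerase, read 1471 and 2189 (0.57), FDFT1, which makes squalene, 1391 and 2030 (0.54), and INSIG1, the feedback inhibitor, 635 and 849 (0.41). SREBF2, which encodes the factor that drives these genes, read 882 and 880 (0.00). Fatty acid synthesis genes had 5 higher and 7 lower members of 12, with a median of -0.12.

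Genes of DNA replication and ribosome assembly were mostly lower, also by small amounts. Of 31 S phase genes past the floor 25 were lower and 6 higher, with a median of -0.13. The helicase subunit MCM7 read 1923 (WT) and 1428 (KD) in hypoxia (-0.42), MCM3 997 and 776 (-0.35) and the origin licensing factor CDC6 1907 and 1516 (-0.33). Dimmer probe sets went the other way, at 0.55 for MCM7 and at 0.84 and 0.07 for CDC6. UHRF1, which maintains DNA methylation, read 96.6 and 181 (0.81), but its other probe sets, below the floor in both hypoxia arrays, were at -0.13 and -0.05. Of 27 ribosome biogenesis genes 21 were lower and 6 higher, with a median of -0.12 against -0.27 in normoxia. NOB1, the endonuclease that finishes the RNA of the small ribosomal subunit, read 1642 and 997 in hypoxia (-0.71) and 1410 and 745 in normoxia (-0.91), and TAF1D 2588 and 1929 (-0.42). Of 29 G2 and mitosis genes 18 were lower and 11 higher, with a median of -0.05 and values from -0.47 to 0.45. Of 26 oxidative phosphorylation genes none differed by more than 0.18 in either direction.

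Signalling and surface genes split within their families. Among 16 EGF and FGF genes past the floor 8 were higher and 8 lower, with TMEFF2 and FGFBP1 as the members 1.5-fold apart. ERRFI1, a feedback inhibitor of the EGF receptor, read 4646 (WT) and 6794 (KD, 0.55), and the ligand NRG1 1965 and 1464 (-0.42). Of 11 S100 genes 8 were higher and 3 lower, with a median of 0.28, and after S100A2 the largest difference was that of S100A8 (129 and 84.8, -0.52). PTGS2, the inducible prostaglandin synthase, read 2390 and 4023 (0.75), while the prostaglandin receptor PTGER2 read 2955 and 1729 (-0.77). Both had the same sign in normoxia, at 0.95 and -0.34. SNAI2, a repressor of epithelial genes, read 306 and 690 in hypoxia (1.13) and 1317 and 2335 in normoxia (0.82), and FN1, fibronectin, read 2601 and 3672 (0.49). Of 11 mesenchymal state genes 8 were higher and 3 lower, with a median of 0.18.

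Chemokine and interferon genes were also mixed. CXCL10, an interferon-induced chemokine, read 3304 (WT) and 2013 (KD) in hypoxia and 486 and 294 in normoxia, differences of -0.71 and -0.70. CCL17 thus differed upwards and CXCL10 downwards in both pairs. The growth factor CSF2 read 938 and 1306 (0.47). Of 34 interferon-stimulated genes past the floor 22 were higher and 12 lower, with a median of 0.11 in hypoxia and 0.24 in normoxia, led by IFI44 (149 and 223, 0.54) and the immunoproteasome subunit PSMB9 (1502 and 2097, 0.48). SOCS1, already described, is the 1 member at least 1.5-fold lower. Among 11 NF-kappaB and inflammation genes 6 were higher and 5 lower, with a median of 0.02.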

How the data were processed

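RNA of 4 cultures, 1 per group, was labelled as biotinylated cRNA and hybridised to Affymetrix arrays, per the labels' protocols. The authors deposited 1 intensity per probe set on a linear scale. How these intensity values were summarised and scaled is not given in the sources used here, whether in headers or labels. The values were used without further scaling and turned to log2(intensity + 16). Values listed at 1 were read as having no level. Of 42924 probe sets, 29254 had 1 gene symbol in the platform annotation, 439 several and 13231 none. Of the first, 27680 were found by gene ID in RefSeq's table of a German Shepherd assembly, and 0 symbols changed. Of a gene's probe sets the one brightest on average in the 4 arrays stood for it, and the floor was the median of all log2 values, 5.96. No coordinates or sequences were used. Counts are of genes at least 2-fold apart. An additive model over all 4 arrays would test the average of both pairs, not the hypoxia pair, and was not fitted.

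Genes were named by rule: HIF1A, the 20 largest differences per direction, list members at least 2-fold apart, the 5 largest members past the floor of each described list, any member of the lists of HIF subunits, hypoxia response, glycolysis, NRF2, zinc and cholesterol genes, the 3 genes either side of the threshold, and genes 2-fold apart in both pairs. The comparison and the lists were chosen with earlier results of these data known. The steps were tested on simulated data. The added differences were 4-fold and in bright genes, so recovery in dim genes or near 2-fold was not covered. The alternatives were quantile, median and cyclic loess scaling, the median over probe sets, 4 other floors, pseudocounts of 1 and 64 and thresholds of 1.5-fold and 3-fold, in Python 3.11.15 and R 4.3.3 with limma 3.58.1, which was used for scaling alone.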

Additional observations from a re-analysis of the deposited data

Results flagged for a closer look

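Of 137 named genes, 23 had a labelled KD minus WT difference of opposite sign in hypoxia and in normoxia, against 3287 of all 9834 genes kept. The naming rule takes genes 2-fold apart the same way in both pairs, which by itself makes opposite signs rarer among named genes. With 1 array a group these contrasts were not tested. In 13 of the 23 at least 1 of the differences was smaller than 0.2. At least 1.5-fold each way were 2, POLR3G and ZNF275. For POLR3G this holds for the brightest probe set, while the other was higher in the KD array in both pairs. The values that follow are the hypoxia difference minus the normoxia difference (log2). Higher in hypoxia were FAM107B (1.42) and the keratins KRT17 (0.92) and KRT18 (0.13), and, each below the floor in at least 1 array, KDM7A (1.88), ATP1A4 (1.67), KIF3B (1.52), IL21R (1.38), EPAS1 (1.01) and CDH1 (0.63). Lower in hypoxia were POLR3G (-3.25), DDIT4 (-0.77), ARNT (-0.37), SLC2A1 (-0.30), HIF1AN (-0.27), VHL (-0.27) and SREBF2 (-0.09). Also lower, and below the floor in at least 1 array, were ZNF275 (-2.70), CDC42SE1 (-1.99), EGLN3 (-1.61), NEB (-1.60), CACNA1S (-1.50), SLC13A2 (-1.12) and PAX2 (-0.17). CLDN16, described below and not counted among the 137, also had opposite signs (-1.39), with values below the floor. For genes below the floor the size is not measured.

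Among 6716 probe sets past the floor that carry no single gene name and were left out of the comparison, 39 were higher and 28 lower by 2-fold or more in the array labelled KD hypoxia. In both pairs 11 were higher and 7 lower by as much.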

How the results depend on the processing

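The 51 higher and 35 lower genes stayed within 1.5 times of these counts under the 3 other scalings (54 to 58 higher, 28 to 30 lower, with the 51 higher genes kept in each) and with the floor set on the brighter hypoxia array (49 and 32). Higher and lower counts were 99 and 77 with no floor, 22 and 7 when the floor was the 75th percentile, and 30 and 9 with both hypoxia arrays at the floor. They were 32 and 19 with the median over probe sets, 92 and 94 with a pseudocount of 1, and 17 and 4 with a pseudocount of 64. At 1.5-fold they were 269 and 255, and at 3-fold 3 and 4. List medians ranged over the alternatives from 0.16 to 0.26 for hypoxia response, 0.21 to 0.28 for glycolysis, 0.31 to 0.38 for cholesterol and -0.16 to -0.10 for NRF2 genes. They ranged from -0.13 to -0.09 for S phase and -0.14 to -0.09 for ribosome genes. Under the 3 scalings, 18 to 20 of the 24 NRF2 genes, 23 to 24 of the 31 S phase genes and 18 to 20 of the 27 ribosome genes were lower. The fatty acid list turned from -0.12 over 12 members to 0.06 with the floor at the 75th percentile. That floor left the values unchanged and kept 6 members, 3 higher and 3 lower. With the median over probe sets ALKBH1 turned to 0.18, IZUMO4 to -0.38 and KIDINS220 to -0.02, since their dimmer probe sets differ in sign. Under the same setting PFKFB3 turned to -0.26, PATJ to 0.19, UHRF1 to -0.05, MCM7 to 0.06, CDC6 to 0.07, VHL to 0.06 and KRT18 to -0.04, GSS was at 0.00 and VEGFA at 0.47. No replicate could be left out, as each group has 1 array. No paired analysis was possible because each group has 1 array and no fit of the pair has residual degrees of freedom. The signal over background limits the lower genes most, of which 26 had at least 1 hypoxia array below the floor.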

Other observations

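Other gene groups of epithelial cells held single genes apart within otherwise level lists. Of 14 desmosome and keratin genes past the floor 10 were higher and 4 lower in the array labelled KD hypoxia, with a median of 0.02, and 3 were at least 1.5-fold higher. They were SFN, a checkpoint protein of stratified epithelia (142 in WT and 257 in KD, 0.79), the stress keratin KRT17 (105 and 180, 0.69) and KRT80 (243 and 390, 0.65). KRT17 was at -0.23 in normoxia. With the median over probe sets the hypoxia difference was 0.23 for KRT17 and 1.03 for KRT80. Of 14 tight junction genes 7 were higher and 7 lower. The largest difference was that of CLDN16 (50.8 and 16.4, -1.04), with the KD value below the floor. In normoxia CLDN16 was at 0.35, with the WT value below the floor. The polarity protein PATJ was at -0.46 (485 and 350) by its brightest probe set, and at -0.60 and 0.30 by the others past the floor. Of 23 matrix genes 15 were higher and 8 lower, with a median of 0.07 against 0.33 in normoxia.

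Stress lists were split in direction. Of 18 heat shock genes 9 were higher and 9 lower, with ZFAND2A, a proteasome-associated gene induced by arsenite, at -0.95 (2342 and 1205) and the chaperone HSPH1 at 0.47 (3769 and 5231). ZFAND2A was at -1.04 in normoxia. Of 24 unfolded protein and ATF4 genes 15 were higher and 9 lower, with a median of 0.03, led by the hormone FGF21 (532 and 837, 0.64) and the transcription factor ATF3 (143 and 229, 0.63). Of 12 p53 targets 8 were lower and 4 higher, with a median of -0.18 in hypoxia and 0.15 in normoxia, while CDKN1A, which stops the cell cycle, was at 0.29 (2807 and 3437). Of 10 Wnt feedback genes 5 were higher and 5 lower, and of 14 genes of iron handling 5 were higher and 9 lower, with a median of -0.01. Of 20 TGF-beta and YAP targets 10 were higher and 10 lower, with the growth factor TGFB2 at 0.57 (921 and 1371).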
